A study of Mus musculus with 6 samples.

Results

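Microglia are the resident macrophages of the brain, and a few of them persist in primary astrocyte cultures. The genes described here are their surface receptors, the leukocyte and macrophage markers Ptprc (CD45) and Aif1 (Iba1), and the 3 chains of complement C1q, which microglia make in large amounts. A list of 10 genes set the choice: Cx3cr1, Csf1r, Aif1, Tyrobp, Trem2, C1qa, C1qb, C1qc, Cd68 and Ptprc. All array probes whose accession mapped to one of them were taken, which found 9 of the 10 genes on 16 probes, out of 17270 genes with a symbol on the array. Cd68 was not analysed here. Of the 16 probes, 12 passed the filter on dim signals described below, and all 9 genes were tested.

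RNA was measured on 6 single-colour Agilent arrays from primary cultures of the cortex and striatum of wild-type C57BL/6J mice, prepared at postnatal day 1. All 3 groups were kept in medium with 10% FBS. Control cultures (n = 2) received no drug, and the protocol names DMSO as their vehicle. Ro cultures (n = 2) received 1 µM Ro3303544, an inhibitor of the kinase GSK-3, for 48 h from 13 days in vitro. Washout cultures (n = 2) had 48 h of the same dose followed by 48 h in drug-free medium. Their RNA was taken at 17 days in vitro, against 15 for the other groups. All 3 groups had been given 5 µM AraC, which kills dividing cells, for 2 days from about day 7, and under 1% of cells were Iba1-positive by staining at 12 days in vitro. Whether both cultures of a group were separate preparations is not stated, so that the p-values measure the spread between these samples, which may be technical. Control and Ro RNA lay on slide 1 and washout RNA on slide 2, so that slide, culture age and washout cannot be told apart.

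The receptors divide the work of sensing and survival. Csf1r binds Csf1 and Il34 and its signal keeps microglia alive, Cx3cr1 binds the membrane-bound chemokine Cx3cl1, and Trem2 binds lipids and passes its signal through the adaptor Tyrobp (DAP12). Ptprc is the tyrosine phosphatase that marks leukocytes, and Aif1 is an actin-binding protein of macrophages. C1qa, C1qb and C1qc encode the chains that join as C1q, which recruits the proteases C1r and C1s and starts the classical complement pathway. GSK-3 is best known as the kinase that marks β-catenin for destruction, so that its inhibition raises transcription through TCF/LEF factors. The factor PU.1 (gene Spi1) drives many macrophage genes and binds a core of the letters GAGGAA.

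Promoters of 7 of the 10 listed genes were taken from the RefSeq table (build GRCm38.p6): Cd68, Aif1, Trem2, Ptprc, C1qb, C1qc and Cx3cr1. The 250 bases before each annotated start were searched, which gave 8 windows because Ptprc has 2 starts. C1qa, Tyrobp and Csf1r, of which Csf1r fell with Ro, were not searched. The windows printed here are those of C1qb and C1qc, neighbours on chromosome 4, and of Aif1 and Cx3cr1. With Ro, Aif1 and Cx3cr1 fell more than 2-fold, while the changes of C1qb and C1qc did not pass the threshold given below. The sequences run 5′ to 3′ on the gene's strand, and capitals mark GAGGAA or its reverse complement TTCCTC. They cover chr4:136886201-136886450 (minus strand) for C1qb, chr4:136892915-136893164 (minus strand) for C1qc, chr17:35176053-35176302 (minus strand) for Aif1 and chr9:120068297-120068546 (minus strand) for Cx3cr1.
C1qb: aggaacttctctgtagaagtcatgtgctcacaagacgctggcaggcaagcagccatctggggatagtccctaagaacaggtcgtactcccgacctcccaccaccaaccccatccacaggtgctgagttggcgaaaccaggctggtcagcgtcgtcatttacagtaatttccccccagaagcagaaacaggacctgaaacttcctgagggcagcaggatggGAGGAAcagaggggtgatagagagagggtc
C1qc: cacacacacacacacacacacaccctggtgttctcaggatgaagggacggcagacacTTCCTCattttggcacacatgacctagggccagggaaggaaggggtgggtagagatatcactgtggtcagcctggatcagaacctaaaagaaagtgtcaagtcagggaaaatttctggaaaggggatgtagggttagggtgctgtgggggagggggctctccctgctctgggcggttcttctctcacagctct
Aif1: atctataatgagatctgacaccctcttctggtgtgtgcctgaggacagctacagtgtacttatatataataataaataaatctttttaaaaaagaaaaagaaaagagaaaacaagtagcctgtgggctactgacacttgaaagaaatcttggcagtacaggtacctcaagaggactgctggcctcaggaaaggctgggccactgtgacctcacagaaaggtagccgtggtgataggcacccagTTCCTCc
Cx3cr1: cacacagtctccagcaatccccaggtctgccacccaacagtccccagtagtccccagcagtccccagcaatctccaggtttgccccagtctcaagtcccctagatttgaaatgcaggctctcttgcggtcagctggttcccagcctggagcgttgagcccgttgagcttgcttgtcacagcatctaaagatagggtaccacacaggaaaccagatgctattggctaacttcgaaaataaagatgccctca

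On either strand, GAGGAA was found in the windows of 6 of the 7 genes, with 1 match in 6 of the 8 windows, and the Cx3cr1 window held none. Of all 32851 windows of this length in the table, 23.3% held these letters. The longer form GAGGAAGT was in 2.44% of all windows and, among the 4 shown, only in that of C1qc. The TCF/LEF letters CTTTGAT, on either strand, were in 3.21% of all windows and in those of 0 of the 7 genes. Such matches describe letters and nothing more. Spi1, the PU.1 gene itself, was not well above background on any of the 6 arrays.

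Signals are given as a percentage of the 75th percentile of the same array's probe signals, the level to which each array was scaled. That percentile ranged from 631.2 to 807.3 intensity units, and 60.4 to 65.2% of probes were well above background, so that the arrays were of similar brightness. Different probes bind with different strength, and levels are therefore compared within a gene only. The 11 astrocyte markers measured were all above background on every array. Gfap, the astrocyte filament, lay at 1672 and 1483% in control, 785 and 809% with Ro and 1662 and 1611% after washout. The glutamate transporter gene Slc1a2 rose with Ro (log2 change 1.21 ± 0.10 SE, limma adjusted p = 0.0011), and for Slc1a3 the change was 0.06 ± 0.10. Lymphocyte and neutrophil markers were near the floor: of 14 on the array 2 were above background everywhere and 6 (Camp, Cd3d, Elane, Ms4a1, Ncr1, S100a8) nowhere, with summed signals of 25.8 and 49.5% in control, 23.7 and 28.6% with Ro and 31.8 and 22.2% after washout.

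With the inhibitor, 4 of the 9 genes fell, each by more than 2-fold: Cx3cr1, Csf1r, Ptprc and Aif1. Tyrobp, Trem2, C1qa, C1qb and C1qc were each lower on both Ro arrays than on both control arrays, but by 1.21- to 1.33-fold, and did not pass the threshold (limma, Benjamini-Hochberg adjusted p under 0.05 over all 20091 features tested). Over all features 22.7% fell and 19.4% rose in this comparison, so that 4 of 9 is to be read against a wide response. The balance of rises and falls turned with the scaling: 46.1% of calls were rises, and 51.4% under median centring and in the authors' deposited table. The groups did not overlap, with Ro below control, for all 9 genes and for 38.8% of all features (38.5% with Ro above). The median log2 change was -0.41 over the 9 genes and 0.004 over all features. Over the 11 astrocyte markers it was -0.57. In RNA from a whole culture, fewer microglia and less RNA of these genes per microglial cell cannot be told apart.

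The chemokine receptor gene Cx3cr1 had the largest fall. Its signal was 26.9 and 22.2% in the control cultures and 6.92 and 7.55% in the Ro cultures, and it stood at 16.1 and 24.2% after washout. Both Ro arrays were low and close together, and the washout arrays spread from below the control range into it. The fall was 3.38-fold (log2 change -1.76 ± 0.22 SE, limma adjusted p = 0.0032), and the rise from Ro to washout was 2.74-fold (1.45 ± 0.22, adjusted p = 0.0057). A second Cx3cr1 probe was not well above background on any array.

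Csf1r, the receptor for the microglial survival factors, read 43.2 and 39.4% in control, 15.6 and 19.1% with Ro and 34.4 and 30.5% after washout. The 3 groups did not overlap, with washout between Ro and control. It fell 2.39-fold with Ro (-1.26 ± 0.13, limma adjusted p = 0.0019) and rose 1.88-fold after removal (0.91 ± 0.13, adjusted p = 0.0051). A second passing probe for Csf1r gave 8.09 and 7.70% in control, 3.54 and 5.09% with Ro and 13.6 and 7.24% after washout. It moved the same way with Ro, and its high first washout value lay in a patch of that array where the dim spots around it were raised by 2.23 on the log2 scale.

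Ptprc was at 20.0 and 19.1% in control, 8.54 and 9.51% with Ro and 14.3 and 15.2% after washout. Replicates were tight in each group and the 3 groups were separate, again with washout in the middle. The 2.17-fold fall (-1.12 ± 0.09, limma adjusted p = 0.00083) was followed by a 1.64-fold rise (0.71 ± 0.09, adjusted p = 0.0031). Each value is a mean over 10 spots of the probe, of which 1 on each washout array lay in a raised patch. For Ptprc and Csf1r, 1 further probe each was above background on the first Ro array alone, at 25.9% and 31.6%, against at most 2.10% on the other 5, and failed the filter, as did another Ptprc probe.

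Aif1, the gene of the Iba1 protein by which the cultures were stained, gave 91.6 and 97.7% in control, 39.1 and 50.6% with Ro and 102.8 and 95.6% after washout. The Ro arrays were the only low ones, and the control and washout arrays overlapped. It fell 2.13-fold (-1.09 ± 0.14, limma adjusted p = 0.0036) and rose 2.23-fold (1.16 ± 0.14, adjusted p = 0.0030). Its second probe gave a 2.46-fold lower signal with Ro. The staining limit of under 1% was set before the drug was added, and no count of Iba1-positive cells after it was among the data used here.

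**Figure D1:**
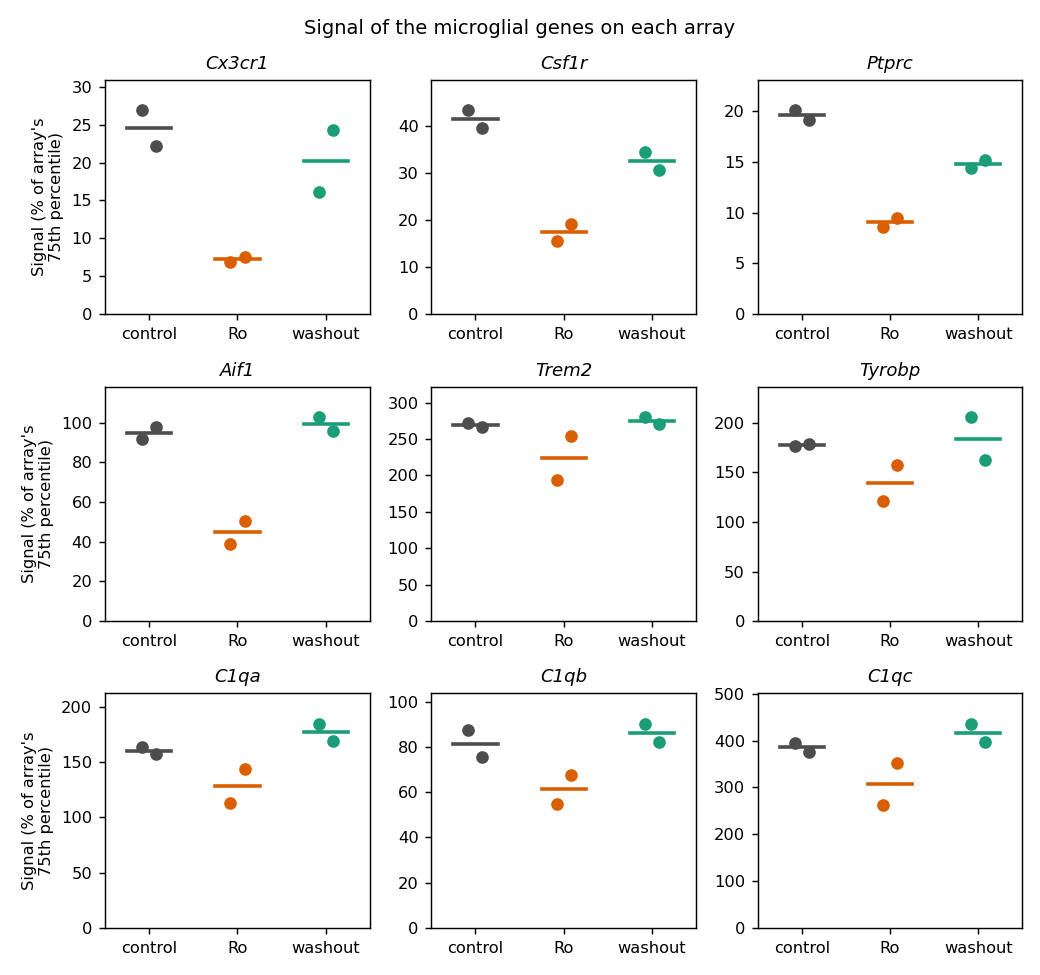
Signal of the 9 genes on each array, as a percentage of that array's 75th percentile (y axis, from 0, with a scale of its own in each panel), for control, Ro and washout (x axis). Points are the 2 arrays of a group and bars their mean on the plotted scale: Cx3cr1, Csf1r, Ptprc and Aif1 lie more than 2-fold lower with Ro, and the other 5 genes are less far apart.

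The signalling pair Trem2 and Tyrobp had smaller measured changes with Ro than these 4 genes. Trem2 gave 272 and 266% in control, 194 and 254% with Ro and 280.2 and 270.3% after washout. The second Ro culture came close to control while the first was clearly lower, and the change was -0.28 ± 0.14 (limma adjusted p = 0.167, 95% interval -0.63 to 0.07). A second Trem2 probe read 59.4 and 58.8% in control and 47.2 and 59.3% with Ro, so that there the groups overlapped.

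Tyrobp, the adaptor that carries the Trem2 signal inward, gave 176 and 178% in control, 121 and 157% with Ro and 206 and 162% after washout. The control arrays agreed closely and lay inside the wider washout range, whose high first array had the probe in a patch raised by 1.13 on the log2 scale. Its change with Ro was -0.36 ± 0.17 (adjusted p = 0.153, interval -0.80 to 0.08). The intervals of Trem2 and Tyrobp include 0 as well as falls of over 1.5-fold, and a change of that size is not excluded by these data.

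The chains of C1q moved alike. C1qa read 163 and 157% in control, 113 and 144% with Ro and 184 and 169% after washout. C1qb read 87.4 and 75.4%, then 54.9 and 67.5%, then 90.2 and 82.2% in the same order. C1qc read 395 and 376%, 262 and 353%, and 436 and 398%. In each of the 3 genes the first Ro culture was the lowest array, and the second lay between it and control.

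The Ro changes of the C1q genes were -0.33 ± 0.13 for C1qa (limma adjusted p = 0.106), -0.41 ± 0.14 for C1qb (adjusted p = 0.064) and -0.34 ± 0.16 for C1qc (adjusted p = 0.140). The 95% intervals ran from -0.67 to 0.01, from -0.77 to -0.06 and from -0.74 to 0.06. The whole of each interval lies above that of Csf1r, -1.59 to -0.92. The intervals of C1qb and C1qc, and that of Tyrobp given above, however, overlap that of Aif1, -1.45 to -0.73. The split of the 9 genes into a group with large and a group with small changes was made after the values were seen and was not tested. At an unadjusted p under 0.05, C1qb joins the 4 genes called, making 5 of 9, against 26.8% of all features lower at that p.

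**Figure D2:**
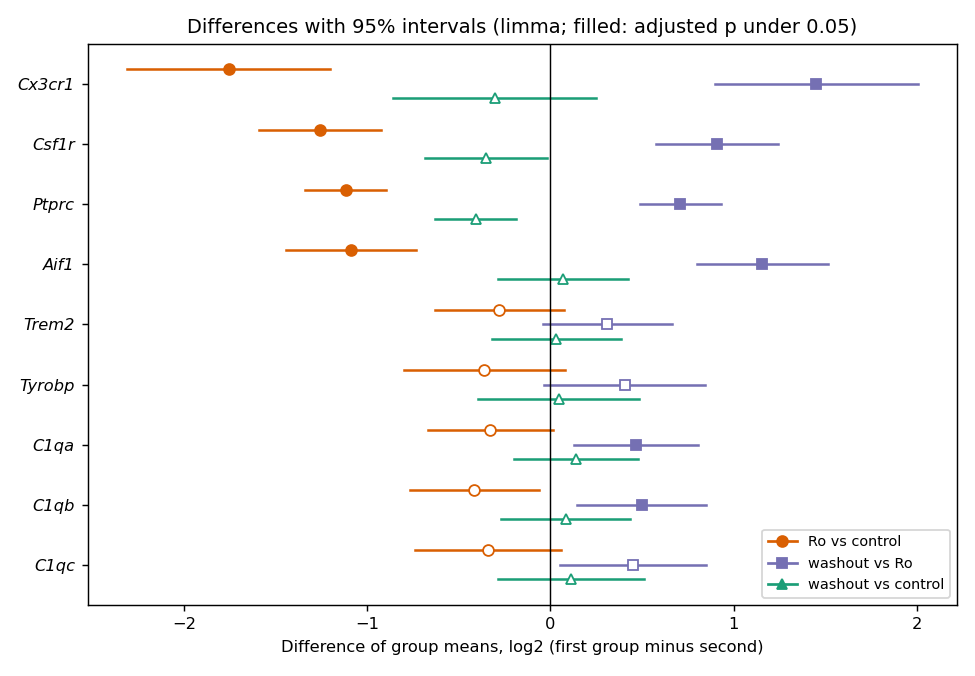
Log2 differences between group means (x axis) for each of the 9 genes (y axis), with 95% intervals from limma and symbols filled where the adjusted p was under 0.05. Circles are Ro minus control, squares washout minus Ro and triangles washout minus control: Cx3cr1, Csf1r, Ptprc and Aif1 have filled circles and squares, and no triangle is filled.

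After 48 h without the inhibitor, 6 of the 9 genes had risen from their Ro level: Cx3cr1, Csf1r, Ptprc, Aif1, C1qa and C1qb. Over all features 21.4% rose and 20.1% fell, so that 51.5% of the calls were rises, against 40.5% with arrays centred on their median and 38.9% in the authors' deposited table. All 9 genes were higher on both washout arrays than on both Ro arrays, as were 36.2% of all features (38.2% were lower on both), and the median change was 0.50 over the 9 genes and -0.020 over all features. C1qa rose by 0.47 ± 0.13 (limma adjusted p = 0.041), with its probe on the first washout array in a patch raised by 0.51, and C1qb by 0.50 ± 0.14 (adjusted p = 0.039). Both calls were lost with median centring of the arrays, the authors' own scaling, no filter, a fit of the 4 arrays alone, a replicate block, or the loss of any 1 array other than the second Ro array (adjusted p up to 0.146 for C1qa and 0.164 for C1qb), while the 4 others kept theirs in each of these. The changes of C1qc (0.45 ± 0.16, adjusted p = 0.071), Tyrobp (0.41 ± 0.17, adjusted p = 0.118) and Trem2 (0.31 ± 0.14, adjusted p = 0.132) did not pass.

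Between washout and control none of the 9 genes passed the limma threshold, and 2 did at an unadjusted p under 0.05, Ptprc and Csf1r, both lower, as were 15.7% of all features at that p. In this comparison 5.97% of all features were lower and 4.13% higher after washout, with 40.9% of the calls higher, 30.8% under median centring and 29.1% in the authors' deposited table. Ptprc remained 1.33-fold below control in value (-0.41 ± 0.09, adjusted p = 0.051) and passed when only probes above background on all 6 arrays were tested. Csf1r differed by -0.35 ± 0.13 (adjusted p = 0.159) and Cx3cr1 by -0.31 ± 0.22 (adjusted p = 0.418). For Aif1 the difference was 0.07 ± 0.14, and for C1qa, C1qc and C1qb it was 0.14, 0.11 and 0.08. The groups did not overlap for 4 of the 9: Csf1r and Ptprc were lower after washout, as were 29.4% of all features, and C1qa and C1qc higher, as were 26.8%. The median was 0.04 over the 9 genes and -0.011 over all features.

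The ligands of Csf1r changed with their receptor. Csf1, an abundant product of astrocytes, gave 1858 and 1971% in control, 672 and 718% with Ro and 2444 and 2375% after washout. Ro arrays were far below the others, and washout lay above control without passing (0.33 ± 0.08, limma adjusted p = 0.061). The probe has repeated spots, of which 1 lay in a patch of the first washout array raised by 4.21 on the log2 scale. The second washout array read nearly as high. The fall with Ro was 2.75-fold (-1.46 ± 0.08, adjusted p = 0.00029) and the rise after removal 3.47-fold (1.79 ± 0.08, adjusted p = 0.00021).

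Il34, the other Csf1r ligand, gave 252 and 273% in control, 157 and 180.3% with Ro and 232 and 214% after washout. It fell 1.56-fold (-0.64 ± 0.10, adjusted p = 0.0075) and rose 1.32-fold (0.40 ± 0.10, adjusted p = 0.030), and the rise was lost under median centring, with no filter and in the replicate block. Cx3cl1, the ligand of Cx3cr1, read 2349 and 2452% in control, 2424 and 2767% with Ro and 2110.3 and 2130.4% after washout. Control and Ro overlapped for Cx3cl1, and its change with Ro was 0.11 ± 0.09 (adjusted p = 0.372, interval -0.12 to 0.34), a range that holds no fall like that of its receptor gene.

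**Figure D3:**
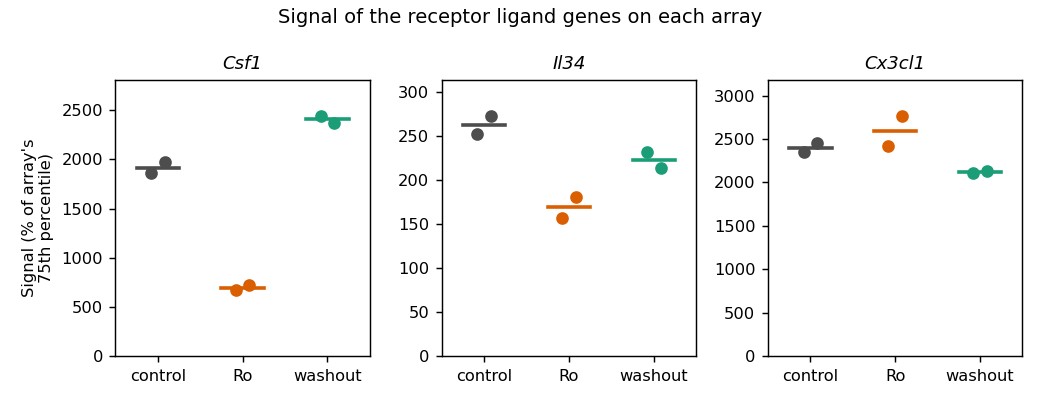
Signal of the ligand genes Csf1 and Il34 (for Csf1r) and Cx3cl1 (for Cx3cr1) on each array, as a percentage of the array's 75th percentile (y axis, from 0), in control, Ro and washout (x axis). Points are arrays and bars group means: Csf1 and Il34 are low with Ro, and Cx3cl1 overlaps between control and Ro.

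Other genes of microglia gave a mixed account. Of 32 tested, 14 fell and 4 rose with Ro, against 22.7% and 19.4% of all features. The median was -0.52, or -0.35 with 4 genes that were below background in a whole group set at their bounds. Cybb, the catalytic subunit of the phagocyte NADPH oxidase, was at least 3.81-fold lower with Ro, not being well above background there. Itgam, the integrin CD11b, fell by 1.60 ± 0.17 (limma adjusted p = 0.0021), although only 1 of the 2 Ro arrays was well above background there, and Alox5ap, needed for leukotriene synthesis, fell by 1.57 ± 0.13 (adjusted p = 0.00092). Siglech, a lectin that signals through Tyrobp, went the other way and was at least 2.63-fold higher with Ro, at a dim 4.80 and 7.73%. Siglech passed the filter through the Ro arrays alone, and Cd33, counted among the falls, through the control arrays alone. The other genes that rose, named after their values were seen, were Tmem119, a marker of resident microglia (0.93 ± 0.09, adjusted p = 0.0017), the macrophage receptor gene Adgre1, or F4/80 (0.57 ± 0.14, adjusted p = 0.030), and the transporter gene Slco2b1 (0.54 ± 0.08, adjusted p = 0.0049), and all 3 were above background on every control and Ro array.

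The summed signal of the 36 other microglial genes on the array was 3802 and 3870% in control, 3191 and 3749% with Ro and 3932 and 3641% after washout. That of the 9 genes was 1276 and 1231%, 816 and 1062%, and 1364 and 1247%. Both sums were lowest on the first Ro array. Of the other microglial genes, 25 were above background on all arrays, while P2ry12, a purine receptor typical of resting microglia, and Spi1 were so on none. After removal 14 of the 32 rose from Ro and 3 fell, against 21.4% and 20.1% of all features. Compared with control 3 were higher and 2 lower, against 4.13% and 5.97% of all features. P2ry13, a relative of P2ry12, was at least 5.09-fold above Ro and 5.55-fold above control, on a probe that lay in a raised patch of the second washout array (1.25 on the log2 scale). P2ry13 passed the filter through the washout arrays alone, and without the filter it lost its call against control. Alox5ap was still lower than control (-0.82 ± 0.13, limma adjusted p = 0.026), a call lost without the filter, in a fit of 4 arrays and with the replicate block.

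Partners and signalling proteins of Tyrobp were tested for 14 genes, of which 7 fell and 1 rose with Ro, with a median of -0.37, against 22.7% falls and 19.4% rises over all features. The 1 that rose is Siglech, counted above among the microglial genes too, which passed the filter through the Ro arrays alone. Lcp2, counted among the falls, passed through the control arrays alone. Clec5a, a lectin receptor that uses Tyrobp, gave 28.2 and 26.7% in control, 6.11 and 6.40% with Ro and 21.1 and 21.6% after washout. The 3 groups were separate, and the fall was 4.39-fold (-2.13 ± 0.07, limma adjusted p = 0.00014), larger in value than that of Cx3cr1. Hcls1, a haematopoietic actin regulator, fell 2.63-fold and the Src-family kinase Lyn 2.09-fold. From Ro to washout 7 rose and 2 fell, against 21.4% and 20.1% of all features. Clec5a (1.77 ± 0.07), Hcls1 (1.14 ± 0.10) and Lyn (0.63 ± 0.07) were among the rises. Compared with control 4 of the 14 were lower and 0 higher after washout, against 5.97% and 4.13% of all features. At least Clec5a and Lyn of the 4 lost their calls without the filter or with the replicate block. Without the filter only 78 features in all were lower than control. Of the 19 on the array, Fgr, Pik3cg, Sirpb1a, Trem1 and Trem3 were above background on none of the 6.

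In the complement pathway the C1 proteases moved more than C1q. C1ra, the gene of the protease C1r, gave 182 and 182% in control, 57.0 and 61.5% with Ro and 209 and 188% after washout, and C1s1, the next protease, gave 146 and 125%, 57.2 and 63.2%, and 142 and 162%. Both were low on the Ro arrays alone, with falls of 3.08-fold (-1.62 ± 0.09, limma adjusted p = 0.00030) and 2.24-fold (-1.16 ± 0.12, adjusted p = 0.0019). C3, the central component, gave 3023 and 2815% in control, 860.1 and 1012% with Ro and 8430 and 7818% after washout.

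C3 thus fell 3.13-fold (-1.64 ± 0.11, limma adjusted p = 0.00051) and then rose 8.70-fold to a level above control (1.48 ± 0.11, adjusted p = 0.0069). Its probe has repeated spots, of which 3 lay in raised patches of the first washout array, but the second washout array was as high. Cfi, the protease that inactivates C3b, rose with Ro (1.35 ± 0.09, adjusted p = 0.00049) and was higher still after washout (2.42 ± 0.09 over control, adjusted p = 0.0033). Of 15 complement genes tested other than C1q, 5 fell and 3 rose with Ro (median -0.07). From Ro to washout 9 rose and 1 fell (median 0.62), and 5 were higher and 1 lower than control after washout. The shares over all features, in the same order, were 22.7% and 19.4%, 21.4% and 20.1%, and 4.13% and 5.97%. Serping1, the C1 inhibitor, was among the 5 (0.96 ± 0.11, adjusted p = 0.014). Without the filter only 63 features in all were higher than control after washout. Astrocytes and other glia also express C3, C1r and C1s, and these arrays do not show which cells the signal came from.

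Genes of related macrophage states did not follow one direction. Among border macrophage markers, F13a1 (the clotting factor XIII A chain) was at least 7.00-fold lower with Ro and Cbr2 fell by 1.82 ± 0.09, whereas the platelet chemokine gene Pf4 rose by 1.34 ± 0.14 and the scavenger receptor gene Stab1 by 0.89 ± 0.10 (limma adjusted p from 0.00025 to 0.0028), making 3 lower and 3 higher of 6 tested. Of 12 genes of disease-associated microglia, the state that depends on Trem2, 4 fell and 3 rose. Gpnmb rose by 2.32 ± 0.11, Lpl fell by 1.43 ± 0.10, and the chemokine gene Ccl6 was at least 3.35-fold lower. Of 17 lysosomal genes 5 rose, including Npc2 (0.86 ± 0.10), and 0 fell under limma at the threshold. These list counts stand against 22.7% falls and 19.4% rises over all features. Many cells make lysosomal proteins, Lpl and Gpnmb. Of the cytokine genes, Ccl4 fell by 1.03 ± 0.12 (adjusted p = 0.0027) and rose by 0.76 ± 0.12 after removal, and Il1a, Il1b, Il6 and Tnf were above background on none of the 6 arrays.

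**Figure D4:**
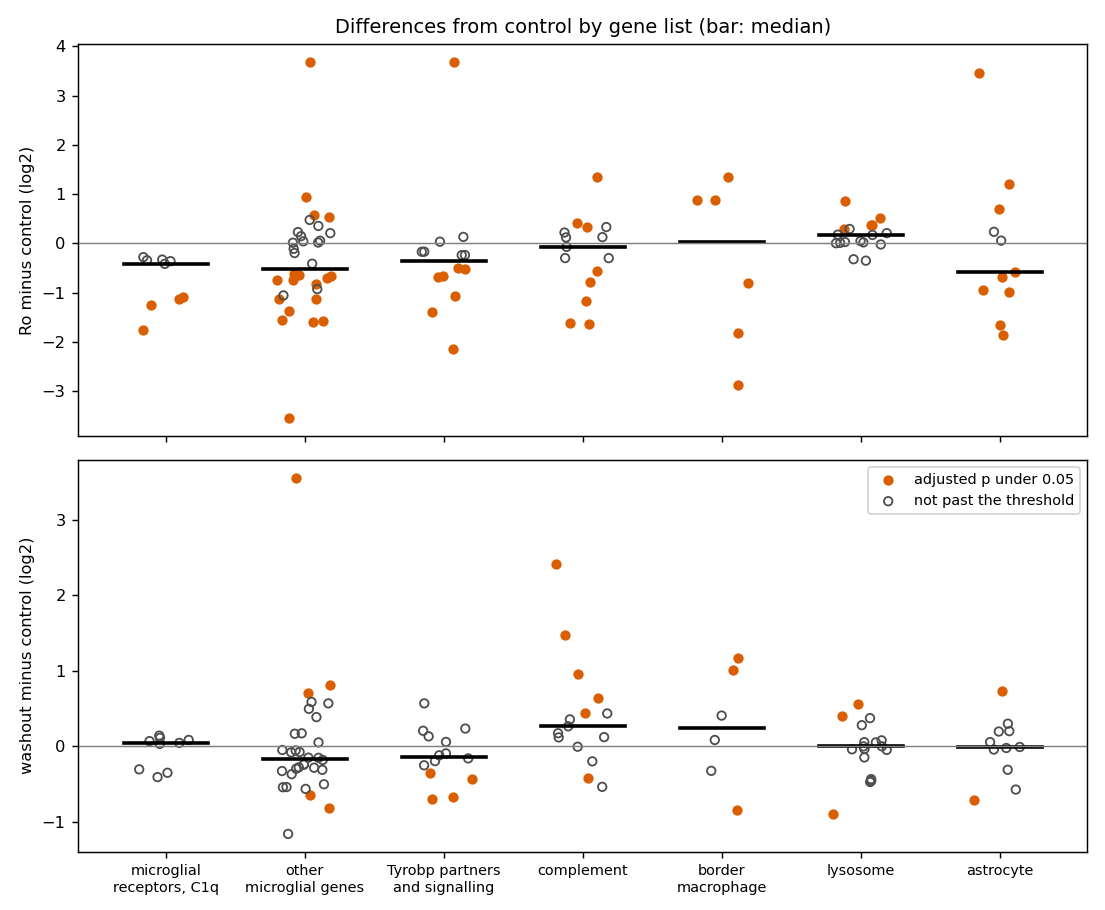
Differences from control on the log2 scale (y axis) for the genes of 7 lists (x axis), with Ro in the upper and washout in the lower panel. Each point is a gene, filled where the limma adjusted p was under 0.05, and bars are list medians; genes below background in a whole group are drawn at their measured difference. With Ro the medians are -0.41 for the 9 genes, -0.52 for the other microglial genes and -0.37 for the Tyrobp list. For the astrocyte list the median is -0.57, for complement -0.07, for border macrophages 0.03 and for lysosome 0.17. After washout the medians lie between -0.17 and 0.26.

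Markers of other cell types moved with the treatment as well, and their part in the changes of the microglial genes was not tested. With Ro 6 of 11 astrocyte genes fell and 3 rose, and 4 of 6 oligodendrocyte-lineage genes fell and 1 rose. Of the fibroblast and pericyte genes 4 of 6 fell and 1 rose. Of the neuronal genes 3 of 5 fell and 1 rose, and all 3 ependymal genes tested fell. The neuronal gene that rose, Nefl, also counted in the median below, passed the filter through the Ro arrays alone. Its signal was 2.04 and 2.86% in control and 13.3 and 11.3% with Ro. Over all features 22.7% fell and 19.4% rose. The median changes were -0.57 for astrocyte, -0.78 for oligodendrocyte-lineage, -0.65 for fibroblast and pericyte, -0.63 for neuronal and -1.16 for ependymal genes. All of these lay below the -0.41 of the 9 microglial genes. The summed signal of the oligodendrocyte-lineage genes was 692.8 and 720.4% in control, 256.7 and 260.0% with Ro and 466.4 and 463.6% after washout, and of the fibroblast and pericyte genes 25640 and 28650%, 8809 and 8692%, and 18850 and 18550%. Of the fibroblast and pericyte sum, Acta2 (smooth muscle actin) made up nearly all, at 24244 and 27039%, 7620 and 7551%, and 17802 and 17411%, while the collagen gene Col1a1 changed by -0.13 ± 0.18 (limma adjusted p = 0.588) and Lum rose by 0.34 ± 0.10 (adjusted p = 0.049) with Ro. The 1 endothelial gene tested, the VEGF receptor gene Kdr, rose from 29.8 and 29.4% in control to 240.3 and 272.6% with Ro (3.11 ± 0.10, adjusted p = 0.00013) and stood at 54.5 and 61.7% after washout. Mog and Pecam1, defining markers of oligodendrocytes and of endothelium, were above background on no array.

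The 8 other genes whose profile over the 6 arrays was most like the mean profile of the 9 microglial genes, by Pearson correlation and as a description only, were B3gat1 (r = 0.999), Fcgr1 (0.997), Rasgef1c (0.997), Pgap4 (0.996), Fbxo4 (0.995), Entpd6 (0.995), Cd99l2 (0.994) and Mbp (0.993). Fcgr1, the high-affinity IgG receptor, is a macrophage gene, and it fell by 1.13 ± 0.15 with Ro (limma adjusted p = 0.0039) and rose by 0.98 ± 0.15 after removal. Mbp, the myelin basic protein gene, and B3gat1, which builds the HNK-1 sugar of neural cells, are not microglial markers. With 6 arrays in 3 groups such a ranking follows the group means, and many genes share them.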

How the data were processed

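The authors hybridised Cy3-labelled RNA to single-colour Agilent mouse arrays and deposited Feature Extraction output (version 10.1 per the submitters' processing notes, 10.5.1.1 per the file headers) with an intensity per spot, background-corrected and not scaled between arrays. They also deposited a table with a linear ratio per probe, centred by a rule not given in the sources used here, which served as an alternative. Of 41174 non-control probes 106 with faulty spots were left out. Spots of a probe were averaged, and the log2 intensity was reduced by the array's 75th percentile. Both arrays of some group had to call a probe well above background (26474 kept). Accessions were matched to RefSeq symbols (61.0% of probes), and the probe with the highest mean stood for each gene (20091 features).

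A limma model (3.58.1, under R 4.3.3) fitted a mean to each of the groups over the 6 arrays (3 residual and 2.09 prior degrees of freedom) with Benjamini-Hochberg adjustment over all features. Errors are limma's SE, n = 2 arrays a group. An exact two-sided permutation test of 2 against 2 cannot go below p = 0.333, so that calls rest on the pooled spread. The number of arrays limits the precision. Where a gene was not well above background on either array of a group, an "at least" fold is given, from the lowest signal called above background. A patch of an array was called raised where its dim spots exceeded the other arrays by over 0.5 on the log2 scale. Raised patches touched spots of further listed genes, among them Gfap, Npc2, Acta2 and Col1a1, and not all are named. Figures used matplotlib 3.10.9 in Python 3.11.15.

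The genes and lists were chosen with earlier results of these data known. Named were the members, the receptor ligands, up to 4 called genes per list and comparison by size of change (not all are printed), Gfap, Slc1a2 and Slc1a3, and the 8 nearest profiles. List genes above background on no array were named after their values were seen. Alternatives used other background corrections, scalings, filters, variance models, probe rules, sets of arrays, replicate blocks and a 2-fold minimum, or omitted single arrays.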

Additional observations from a re-analysis of the deposited data

How the results depend on the processing

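Cx3cr1, Csf1r, Ptprc and Aif1 fell with Ro and rose after removal under every alternative run except a 2-fold minimum, where 2 of the 9 genes rose (Cx3cr1 and Aif1). Counts of genes lower with Ro ranged from 4 to 6 and of genes higher in washout than Ro from 4 to 8 when single arrays were left out, the upper values of 6 and 8 coming without the second Ro culture and 4 from each of the other 5 omissions. Where 1 array was left, its spread was taken from the other groups. With probes above background on all 6 arrays, 1 gene, Ptprc, was lower in washout than control. Differences of washout from control changed sign for Tyrobp (-0.0041 with median centring, -0.016 in the authors' deposited table, and -0.13 to 0.22 when single arrays were left out, lowest without the first washout culture), Trem2 (-0.017 and -0.029 in the first 2 of these) and C1qb (-0.022 to 0.19, lowest without the second control culture). For Slc1a3 the Ro change became -0.028 with quantile normalization and -0.023 to 0.14 when single arrays were left out, lowest without the second control culture. Stab1 rose by 0.35 from Ro to washout with probes averaged. Its second probe lay in a patch of the first washout array raised by 4.20 on the log2 scale. The cause was not tested.

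Equal replicate numbers did not pair the samples (correlation of deviations -0.12, -0.11 and 0.078). With a replicate block 4, 4 and 0 of the 9 genes passed in the 3 comparisons, and features differing between washout and control dropped from 1199 lower and 829 higher to 469 and 297. Exchanging the Ro numbers, chosen after seeing the data, gave 5, 7 and 0. Without a filter 78 features were lower and 63 higher in washout than control, 2479 rose with Ro and 2667 fell from Ro to washout, and a fit of 4 arrays gave 441 and 316 for washout against control. An intensity trend raised the higher features there to 1294. At a 2-fold minimum 1397 features fell and 866 rose with Ro, 985 fell and 1327 rose from Ro to washout, and 256 were lower and 180 higher in washout than control. Leaving out single arrays gave 2660 to 4602 falls and 1946 to 3976 rises with Ro, 2206 to 3597 falls and 2621 to 4668 rises after removal, and 193 to 879 lower and 115 to 1316 higher features in washout than control. The authors' table had a median change of -0.125 over all features from Ro to washout, against -0.020.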
